A study of Mus musculus with 29 samples.

Results

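Neu2 is one of 6 neutrophil subtypes that the authors annotated in mouse blood. Its members were chosen by that deposited annotation, as cells with the parent class Neu and the subtype Neu2. They numbered 4698 of 17186 blood neutrophils, of 51709 blood cells, and of 106977 cells in the 29 libraries of the series, of which 18 came from brain and 11 from blood. The other subtypes held 5918 (Neu1), 2898 (Neu3), 1617 (Neu4), 1352 (Neu5) and 703 (Neu6) cells.

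Gene expression was measured by Drop-seq, a droplet method that tags the transcripts of single cells on barcoded beads. All blood came from male C57BL/6J mice aged 8 to 10 weeks, after sham surgery or stroke, which was produced by passing occlusion of the middle cerebral artery. The 3 groups were sham at day 2 (4 libraries), stroke at day 2 (4 libraries) and stroke at day 14 (3 libraries). No sham group at day 14 was analysed here, so stroke and time cannot be told apart in a day 14 contrast. Each blood library pooled 0.5 ml from each of 2 mice. Red cells were lysed and Ter-119-positive cells removed, with the P2X7 receptor blocker Brilliant Blue G and the transcription inhibitor actinomycin D present in every group. Replicates are libraries, so p-values measure the spread between pools of 2 mice.

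Neutrophils are short-lived phagocytes that leave the bone marrow with a store of antimicrobial proteins. The proteins are packed into primary, specific and gelatinase granules in the order in which the genes are switched on during maturation, and most granule genes fall silent before the cells enter blood. Circulating neutrophils then differ in age, in exposure to interferon and in the readiness of their chemokine receptors and integrins. After stroke they are among the first blood leukocytes to be recruited to brain vessels.

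Neu2 cells carried the neutrophil markers that define the class. S100a8 and S100a9, the subunits of calprotectin, were found in Neu2 in every library. Over the 10 libraries with at least 20 Neu2 cells, S100a8 stood at 137733 ± 19608 CPM (counts scaled to the same total in every library, SD, n = 10) and S100a9 at 87219 ± 17598 CPM. All 12 listed neutrophil markers were present and together made up 29.5% of Neu2 counts. Markers of other blood cells were low in the deposited values, whose fractional counts have an origin not given in the sources used here, so that a level near 0 may not be the level as sequenced. All 7 B cell markers summed to under 1 count each over all Neu2 cells, and so did 3 of 8 for T cells, 5 of 7 for NK cells, 4 of 6 for dendritic cells, 4 of 6 for platelets and 3 of 5 of the primary granule genes of immature neutrophils. Eomes of NK cells, Flt3 and Siglech of dendritic cells, Alas2 of red cells and Fcer1a of basophils were at 0. Of the 9 monocyte markers 3 were under 1 count, and the list was led by Ly6c2 with 1564 counts.

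Blood libraries held 966914 to 5232662 counts, and their cells had medians between 341 and 694. Neu2 gave between 26991 and 960289 counts in the 10 libraries used for expression. Library 3 of stroke day 14 held only 8 Neu2 cells, under the minimum of 20, and was left out of all expression fits, so that n = 2 at day 14. The first library of sham and the first of stroke day 2 stood apart in mitochondrial share, with a median of 0.0838% and 0.0589% in Neu2 cells against 0.581% to 1.96% in the other libraries. Of 55 pairs of blood libraries, 41 shared at least 1 cell barcode, at most 7 per pair, and no shared barcode was Neu2 in both. A doublet caller, Scrublet, marked 0 Neu2 cells and at most 0.127% of the cells of any library, too few for it to have worked.

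The sequence just before the start is shown for 3 of the genes that differed between Neu2 and all other neutrophils as a pool. They were picked by hand and not by rank alone, and each holds a match to a motif searched. Mmp8 (neutrophil collagenase) was the leading gene furthest above the other neutrophils. Isg15 (a ubiquitin-like protein) and Rsad2 (viperin, an antiviral enzyme) are induced by interferon and were among the leading genes with the lowest ratios. BC100530 and Tagln2, with mean log2 ratios of -3.25 and -2.01, were lower still and are not shown. For both Isg15 and Rsad2, Neu2 had rank 4 of the 6 subtypes and Neu5 had the highest level. Each stretch is the 150 bases before the gene's start, from RefSeq on GRCm38.p6, written 5′ to 3′ on the gene's strand. They lie at chr9:7558279-7558428 (Mmp8, plus strand), chr4:156200819-156200968 (Isg15, minus strand) and chr12:26456453-26456602 (Rsad2, minus strand). Capitals mark the letters TTGCNNAA, the core bound by C/EBP factors, in Mmp8. In Isg15 and Rsad2 they mark the core of the interferon-stimulated response element (ISRE), which is GAAA, any 2 bases and GAAA. Both motifs were searched on both strands.
Mmp8: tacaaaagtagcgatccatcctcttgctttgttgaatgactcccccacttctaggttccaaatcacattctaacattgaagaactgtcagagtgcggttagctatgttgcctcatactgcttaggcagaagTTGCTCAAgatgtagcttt
Isg15: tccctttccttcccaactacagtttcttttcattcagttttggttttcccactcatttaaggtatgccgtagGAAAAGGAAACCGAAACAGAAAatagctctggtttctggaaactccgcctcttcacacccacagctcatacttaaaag
Rsad2: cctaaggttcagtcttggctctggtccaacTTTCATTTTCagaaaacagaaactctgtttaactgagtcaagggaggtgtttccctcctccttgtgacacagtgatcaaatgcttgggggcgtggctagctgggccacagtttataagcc

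The Isg15 stretch held 3 overlapping matches, which began 66 to 78 bases before the start, and the Rsad2 stretch held 1 match on the opposite strand, 120 bases before it. The single Mmp8 match began 19 bases before the start. Of the 50 bases after the start, 23 were found in a reference transcript of Mmp8, against 50 for Isg15 and Rsad2. The start of Mmp8 and this distance are thus less certain. Over 300-base windows, 250 before to 50 after a start, the ISRE core was found in 3.44% of 32851 windows and TTGCNNAA in 10.8%. All 12 leading higher genes had a window, and 4 of them (Ly6g, Mmp8, Rdh12, Retnlg) held TTGCNNAA while none held the ISRE core. Of the 12 leading lower genes 11 had a window, and 4 (Il1rap, Isg15, Rsad2, Slfn8) held the ISRE core, and 1 (AI839979) held TTGCNNAA. A match in these letters is a description and not a binding site.

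Neu2 was first compared with the other neutrophil subtypes. The subtypes were made from these same cells, so the ratios describe Neu2 and test nothing. Within each library, Neu2 was set against all other neutrophils as the log2 ratio of CPM after adding 10. Of 2413 genes at or over 50 CPM in either, 26 were higher in Neu2 in all 10 libraries and 121 were lower in all 10. The median ratio over all 2413 genes was -0.15. The 12 highest and the 12 lowest of the same-sign genes are named here and are shown in the plot of ratios by library.

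**Figure D1:**
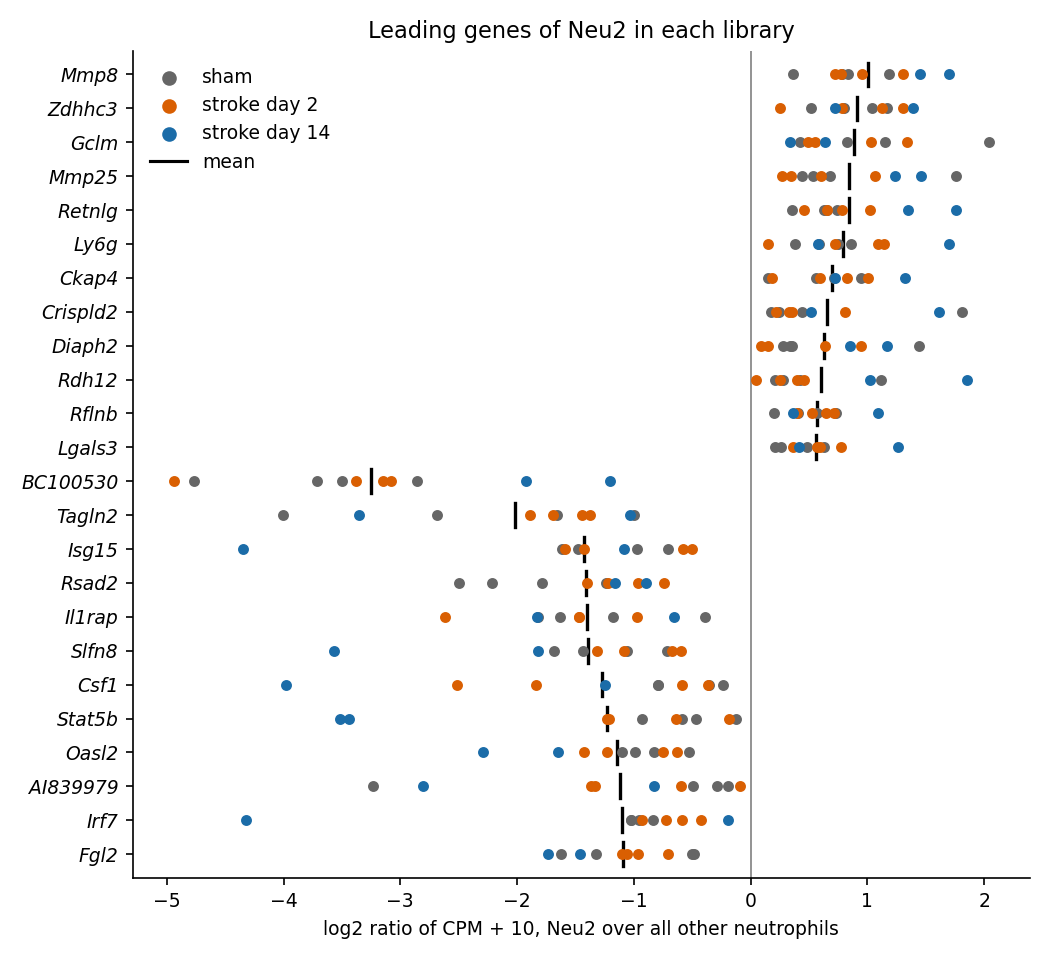
Each point is 1 library, coloured by group, and gives the log2 ratio of CPM + 10 in Neu2 over all other neutrophils (x axis) for a leading gene (y axis), with the mean as a bar. The points of the 12 upper genes lie above 0 and those of the 12 lower genes below 0, which is how they were chosen; Mmp8 leads at a mean of 1.01 and BC100530 trails at -3.25.

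The higher genes included granule and secreted products of neutrophils. Mmp8, stored in specific granules, stood at 4081 CPM in Neu2 and 2090 CPM in other neutrophils, a mean log2 ratio of 1.01 ± 0.40 (SD, n = 10). The gene lists used below count Mmp8 with the gelatinase granule genes and not with the specific granule genes. By library the Mmp8 ratio was 0.37, 0.78, 0.84 and 1.18 in sham, 0.95, 1.30, 0.77 and 0.72 in stroke day 2, and 1.70 and 1.45 in stroke day 14. The 2 day 14 libraries had the highest ratios, while those of sham and stroke day 2 overlapped. The make-up of the other neutrophils differed between groups. Neu3 had a mean share of 73.8% of neutrophils at day 14, against 10.1% in sham and 5.79% in stroke day 2. Within Neu2 itself, with the scaling of the group comparisons below, Mmp8 had means of 4214 CPM in sham and 4180 CPM at day 14. The higher ratios at day 14 therefore do not show a rise within Neu2. Retnlg, which encodes a resistin-like secreted protein of neutrophils, stood at 25811 against 15063 CPM, with a ratio of 0.84 ± 0.43. Mmp25, a membrane-anchored matrix metalloproteinase, had a mean ratio of 0.84, and Ly6g, the surface protein used to mark mouse neutrophils, 0.80. Lgals3 (galectin-3, a sugar-binding lectin) had 0.56. Gclm, a subunit of the enzyme that limits glutathione synthesis, had 0.88. The remaining 6 were Zdhhc3 (a protein palmitoyltransferase, 0.91), Ckap4 (0.70), Crispld2 (0.65), Diaph2 (a formin that nucleates actin, 0.62), Rdh12 (a retinol dehydrogenase, 0.61) and Rflnb (0.56). S100a8 and S100a9 were higher in 10 of 10 libraries by smaller ratios of 0.33 and 0.27.

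Neu2 was not the subtype with the highest level for most of these genes. Among the 6 subtypes, each averaged over the 8 to 11 libraries with at least 20 of its cells, it ranked first for 5 of the 12 and second for 7. Mmp8 stood at 4081 ± 1137 CPM in Neu2 and 4375 ± 1220 CPM in Neu6, which differ by less than the spread, and then at 2876 in Neu4, 2052 in Neu3, 2036 in Neu5 and 1295 ± 710 in Neu1. S100a8 was also highest in Neu6, at 162010 ± 30744 CPM. Retnlg was highest in Neu2, at 25811 ± 6944 CPM, above Neu4 at 21861 ± 7183 and Neu1 at 12106 ± 4714, and the spreads of Neu2 and Neu4 overlapped.

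The specific granule genes had higher means in Neu6 than in Neu2, with ranges over libraries that overlapped. Ngp, which encodes neutrophilic granule protein, stood at 555.8 ± 657 CPM in Neu2 and 19939 ± 16676 CPM in Neu6. Camp (cathelicidin), chosen after its values were seen, stood at 127 ± 295 and 13703 ± 14240 CPM. Both varied widely between libraries. Ngp ran from 0 to 2201 CPM in Neu2 and from 1582 CPM upward in Neu6, and Camp was at 0 in at least 1 library of each. The summed specific granule list was 19430 ± 5693 CPM in Neu2, second of 6, against 71911 ± 50454 in Neu6 and 11046 ± 1614 in Neu1. It ran from 14593 to 33628 CPM in Neu2 and from 18674 to 138728 CPM in Neu6. Of its 10 genes 9 had their highest level in Neu6. Lyz2 (lysozyme), the most abundant of them in Neu2, was higher there than in other neutrophils in 9 of 10 libraries, at 9051 against 6186 CPM.

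**Figure D2:**
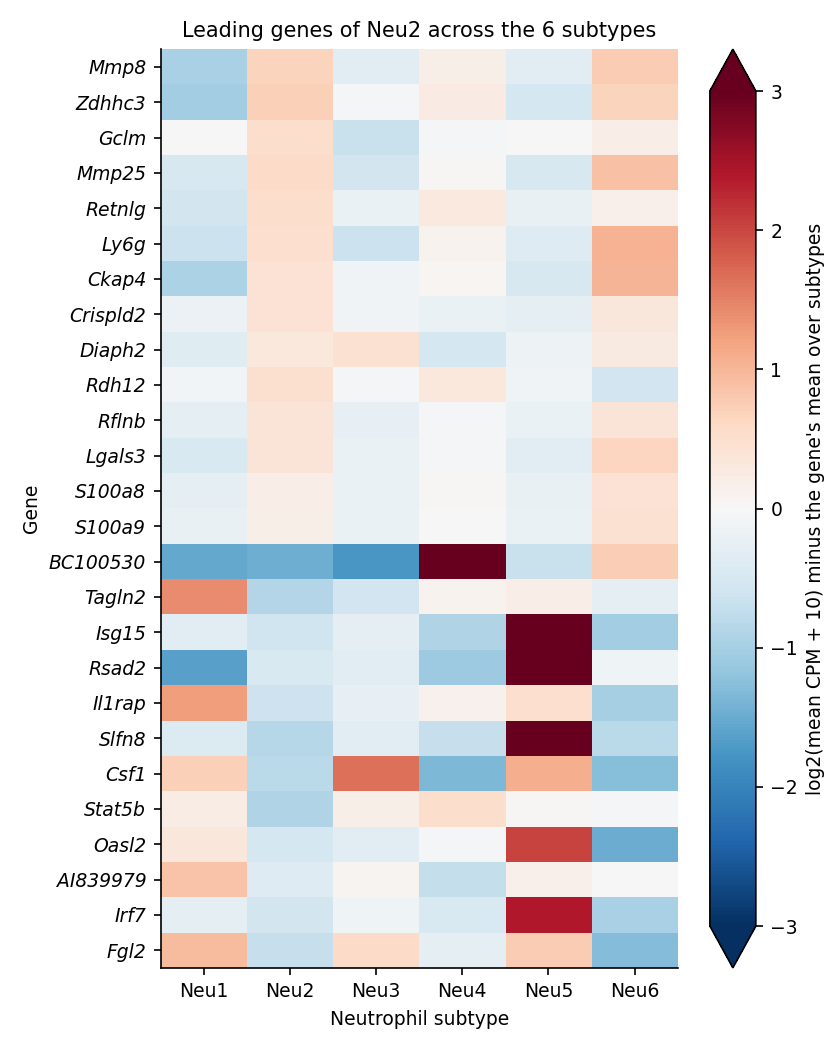
Colour gives the log2 of mean CPM + 10 of a gene (rows) in each neutrophil subtype (columns), minus that gene's mean over the 6 subtypes, with values beyond 3 shown in the end colour. In the upper rows Neu2 and Neu6 are both above the gene's mean for most genes, and in the lower rows Neu2 is below it for all 12, with Neu5 highest for Isg15 and Rsad2 and Neu4 for BC100530.

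Many of the genes lower in Neu2 had their highest level in 1 other subtype. Neu2 was the lowest of the 6 subtypes for only 3 of the 12 lower leading genes. It had rank 5 for 5 of them and rank 4 for 4, with Isg15 and Rsad2 among those at rank 4. Isg15 stood at 39.2 CPM in Neu2 and 121.6 in other neutrophils (ratio -1.43), and Rsad2 at 49.1 and 143 CPM (-1.41). The interferon genes Slfn8, Oasl2 and Irf7 had ratios of -1.39 ± 0.87, -1.14 ± 0.53 and -1.10 ± 1.16 (SD, n = 10). The SD was 1.11 for Isg15 and 0.58 for Rsad2. In the first day 14 library Isg15 and Irf7 had 0 counts in Neu2, and their ratios there were -4.35 and -4.32. The highest levels lay in Neu5, where Rsad2 stood at 993 ± 528 CPM and Isg15 at 651 ± 219 CPM. Against Neu1 alone these 5 genes did not go one way. Isg15 had a mean ratio of 0.05 and Slfn8 of -0.04, Rsad2 was higher in Neu2 in 9 of 9 libraries, by 0.77, and Oasl2 and Irf7 had ratios of -0.88 and -0.27, higher in Neu2 in 1 and 2 of 9. Of the 14 interferon response genes, 13 reached 50 CPM in some subtype and all 13 were highest in Neu5. The summed interferon list was 3347 ± 538 CPM in Neu2, second to 10623 ± 2643 in Neu5, and was led by Ifitm3 at 1546 CPM and Slfn4 at 1317 CPM. Against other neutrophils, 1 of the 8 interferon genes at or over 50 CPM had a mean ratio above 0, and the median was -1.12. That gene was Ifitm3, higher in Neu2 in 10 of 10 libraries by 0.13, while Slfn4 was near level at -0.03. BC100530, a stefin A gene, stood at 10.2 CPM in Neu2 and 1400 ± 412 CPM in Neu4. The stefin A genes are near-identical copies, so the division of counts among them is uncertain.

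Other lower genes separated Neu2 from Neu1, the largest subtype. Tagln2 (transgelin 2, an actin-binding protein) stood at 73.2 CPM in Neu2 and 400.2 ± 158 CPM in Neu1, and its ratio to Neu1 was -2.57, lower in 9 of 9 libraries. Il1rap, the co-receptor of the interleukin 1 receptor, stood at 139 against 529.7 CPM, a ratio of -2.03. Fgl2, a fibrinogen-like protein, had a ratio to Neu1 of -1.45, Stat5b, which relays cytokine signals, -1.08, and AI839979 -1.63, all lower in 9 of 9 libraries. Csf1, the macrophage growth factor, was highest in Neu3, at 132 ± 102 CPM, against 15.7 CPM in Neu2.

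Summed levels of the gene lists placed Neu2 at different ranks, and sums are led by their most abundant members. The gelatinase granule and secretory vesicle list summed to 12946 ± 1069 CPM, the highest of the 6 subtypes. Neu4 stood at 12272 ± 1148, within the spread, and Neu1 at 11161 ± 762. This list counts Mmp8, at 4081 CPM in Neu2, 2876 in Neu4 and 1295 in Neu1. These differences in Mmp8 are larger than those in the sums, so the lead over Neu4 and Neu1 rests on Mmp8. Only 1 of the list's 10 genes was highest in Neu2 and 4 were highest in Neu1. The list's median ratio to other neutrophils was 0.01 against -0.15 for all genes. The calcium-binding and motility list, led by S100a8 and S100a9, was second at 266852 ± 39692 CPM. Fpr1, a formyl peptide receptor of the first list, was higher in Neu2 than in other neutrophils in 9 of 10 libraries, by a mean ratio of 0.39, while Slpi (a protease inhibitor), its most abundant gene, was lower in 10 of 10 by -0.16. The specific granule list, second by its sum, had 4 of 10 genes with a mean ratio above 0 and a median of -0.25. By its sum, Neu2 had rank 5 of 6, above Neu6 only, for the cytokine and chemokine list (8826 ± 1513 CPM), the receptor list (9070 ± 1387) and the early response list (5499 ± 1702). Genes with a mean ratio above 0 numbered 3 of 6, 1 of 10 and 0 of 9 in these lists, with medians of -0.04, -0.16 and -0.19. Over all genes 632 of 2413 had a mean ratio above 0 and the median was -0.15, so the receptor and early response medians lay close to that of all genes.

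Il1b, which encodes the cytokine interleukin 1 beta, stood at 3528 CPM in Neu2 and 6121 CPM in other neutrophils, lower in 10 of 10 libraries by a mean ratio of -0.86. Csf3r, the receptor for the growth factor G-CSF, had -0.44, and Cd44, an adhesion receptor for hyaluronan, -0.38, lower in 10 of 10. Dusp1, Junb and Nfkbia, early feedback and transcription genes, were lower in 10 of 10 by -0.42, -0.31 and -0.41. Cxcr2, a chemokine receptor used in leaving the marrow, was near level at -0.06. The oxidase complex list had 3 of 6 genes with a mean ratio above 0. Of the 10 proliferation genes, Hmgb2 alone reached 50 CPM in Neu2 or in other neutrophils.

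The share of Neu2 among neutrophils was lowest at day 14. In sham the share was 48.5%, 41.6%, 37.3% and 24.6% by library, a mean of 38.0 ± 10.0% (SD, n = 4). In stroke day 2 it was 21.5%, 26.6%, 31.7% and 29.8%, a mean of 27.4 ± 4.43%. In stroke day 14 it was 4.82%, 6.94% and 1.58%, a mean of 4.45 ± 2.70% (n = 3). Wilson 95% intervals, which cover counting error only, ran from 46.4 to 50.6% in the first sham library and from 0.803 to 3.09% in the third day 14 library. All 3 day 14 libraries lay below every sham and day 2 library, while sham and day 2 overlapped.

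**Figure D3:**
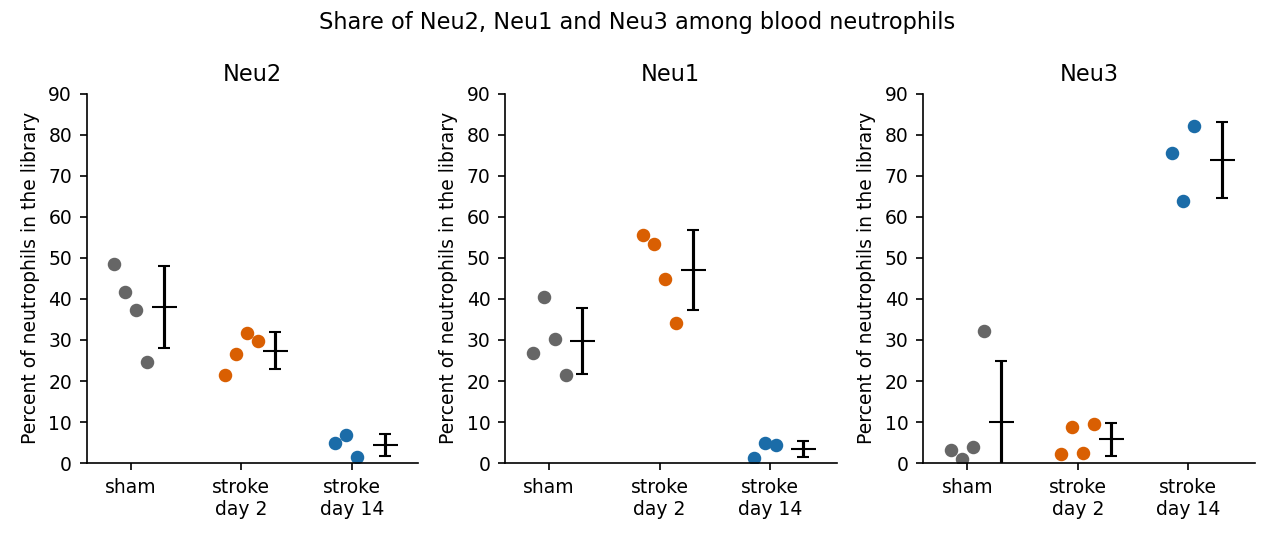
Points give the percent of a library's neutrophils (y axis) that were Neu2, Neu1 or Neu3 in sham, stroke day 2 and stroke day 14, with the mean and SD beside them (the SD of Neu3 in sham reaches below 0 and is not drawn past it). Neu2 and Neu1 lie under 7% in all day 14 libraries, where Neu3 lies between 63.9% and 82.0%.

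The difference between stroke day 2 and sham was -10.6 percentage points, with p = 0.114 by a two-sided exact permutation test over the 8 libraries and 0.114 after Benjamini-Hochberg adjustment over 3 comparisons. The adjustment took in the p-values of both day 14 comparisons, which are not reported. The smallest p of this design is 0.0286. Without the fourth sham library the difference was -15.1 points and the adjusted p 0.0429. From cells with at least 500 counts it was -5.95 points, with an adjusted p of 0.371 by the same exact test. As a percent of all blood cells, Neu2 was 12.3 ± 6.97% in sham and 12.4 ± 5.84% in stroke day 2, a difference of 0.113 points. Neutrophils made up 30.6 ± 15.2% of cells in sham and 47.8 ± 25.0% in stroke day 2. Within the 2 pairs of sham and stroke day 2 libraries whose run identifiers begin alike, the share went from 48.5% to 21.5% and from 41.6% to 26.6%.

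The differences at day 14 were -33.5 points from sham and -23.0 points from stroke day 2. They are given as values with no test, because 8 of the 24 leading genes passed between those groups when all neutrophils were fitted together (of 4944 genes 5.99% were called against sham and 4.69% against stroke day 2), and those genes help to set the subtypes apart. Neu1 stood at 29.7%, 47.0% and 3.53% in sham, stroke day 2 and stroke day 14, higher than sham at day 2 where Neu2 was lower, and low like Neu2 at day 14. Neu3 stood at 10.1%, 5.79% and 73.8%. Among the sham libraries the fourth had the highest Neu3 share, 32.2%, and the lowest Neu2 share, 24.6%. Median counts per Neu2 cell ranged from 424 to 793 in sham, 386 to 626 in stroke day 2 and 386 to 526 in stroke day 14, so depth per Neu2 cell overlapped between groups. From cells with at least 500 counts, the share was 9.74%, 9.60% and 0.952% by library in stroke day 14. It ranged from 22.9% to 46.7% in sham and from 21.3% to 40.2% in stroke day 2. The part of depth in the share was not tested.

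Expression was then compared between groups within Neu2. Counts were summed over the Neu2 cells of each library, scaled by TMM (trimmed mean of M-values), and tested with edgeR's quasi-likelihood test over 2967 genes. Between stroke day 2 and sham 0 genes passed an adjusted p of 0.05 (0% called), 84 had an unadjusted p under 0.05, and the smallest adjusted p was 0.742. DESeq2 also called 0. Within all neutrophils (4944 genes) and within Neu1 (3373 genes) the same contrast called 0. S100a8 differed by -0.06 ± 0.30 (log2 fold change ± SE), and of the leading genes Mmp8 differed by 0.12 ± 0.29 and Retnlg by 0.02 ± 0.31.

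No member of the gene lists passed at day 2. All 5 tested genes of the glucocorticoid list had values above 0, with a median of 0.61 against -0.02 for all genes. They were Fkbp5 (a co-chaperone of the glucocorticoid receptor) at 0.85 ± 0.35, Tsc22d3 (the anti-inflammatory protein GILZ) at 0.69 ± 0.24, Sgk1 (a kinase) at 0.61 ± 0.28, Dusp1 at 0.35 and Cebpd at 0.12, with adjusted p of 1.00 each. Tsc22d3 stood at 390, 471, 260 and 209 CPM in sham and 621, 720, 372 and 493 CPM in stroke day 2, and the groups overlapped. Il1r2, the interleukin 1 decoy receptor, had a log2 fold change of 1.22 ± 0.36, and Nfkbia, the inhibitor of NF-kB, of 1.05 ± 0.30, both with an adjusted p of 0.742. Il1r2 stood at 669, 367, 880 and 192 CPM in sham and at 1490, 2057, 347 and 1263 CPM in stroke day 2, which overlapped. Fkbp5 and Il1r2 were chosen after their values were seen. Of the 9 tested interferon genes 2 had values above 0, and of the 9 early response genes 7 did.

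With 2 libraries at day 14, 4 of 2967 genes passed against sham, all lower (0.135% called, 312 at an unadjusted p under 0.05), and 5 against stroke day 2, all lower (0.169% called, 306 unadjusted). The 4 were Wfdc17, Ifitm1, Tspo and Cd300lf, and Stfa2l1 was added against stroke day 2. A called gene was named only if its libraries did not overlap between the groups compared, so that separation is no added support. The 2 contrasts share the day 14 libraries. DESeq2 called 12 genes against sham, 2 of them higher, and 14 against stroke day 2, all lower.

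Wfdc17 encodes a small secreted protein with a whey acidic protein domain. Its level in Neu2 was 20093, 12456, 11113 and 9366 TMM-scaled CPM in sham, 24072, 9900, 11445 and 12181 in stroke day 2, and 3060 and 786 in stroke day 14. Both day 14 libraries lay below all others. The log2 fold change was -2.82 ± 0.50 against sham (edgeR, adjusted p = 0.0292) and -2.94 ± 0.51 against stroke day 2 (adjusted p = 0.0178). The means were 13257 ± 4730 (SD, n = 4) in sham and 1923 ± 1608 (n = 2) at day 14. These rest on 136 counts at day 14 and 22744 in sham.

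Ifitm1, an interferon-induced transmembrane protein, stood at 12896, 7889, 8049 and 7814 CPM in sham and 15735, 5923, 5617 and 10204 in stroke day 2. At day 14 it stood at 2649 and 765, again below every other library. Its change against sham was -2.46 ± 0.49 (edgeR, adjusted p = 0.0442) and against stroke day 2 -2.49 ± 0.49 (adjusted p = 0.0298). Ifitm3 of the same family had -0.94 ± 0.35 and an adjusted p of 0.355 (edgeR), and 4 of the 9 tested interferon genes had values above 0 against sham.

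Tspo, a translocator protein of the outer mitochondrial membrane, stood at 2307, 1247, 1592 and 1081 CPM in sham, 2263, 967, 1066 and 1852 in stroke day 2, and 378 and 342 in stroke day 14. The day 14 values lay apart, and the change against sham was -2.14 ± 0.44 (edgeR, adjusted p = 0.0442). Cd300lf, an inhibitory receptor of myeloid cells, stood at 863, 611, 808 and 593 CPM in sham, 873, 740, 546 and 834 in stroke day 2, and 252 and 161 at day 14. Its change against sham was -1.87 ± 0.38 (edgeR, adjusted p = 0.0442), on only 16 counts at day 14. Stfa2l1, a stefin A-like cysteine protease inhibitor with near-identical copies, stood at 2449, 1700, 1476 and 2111 CPM in stroke day 2 and 694 and 584 at day 14, a change of -1.62 ± 0.32 (edgeR, adjusted p = 0.0298). Against sham it had -1.17 ± 0.32 and an adjusted p of 0.180.

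**Figure D4:**
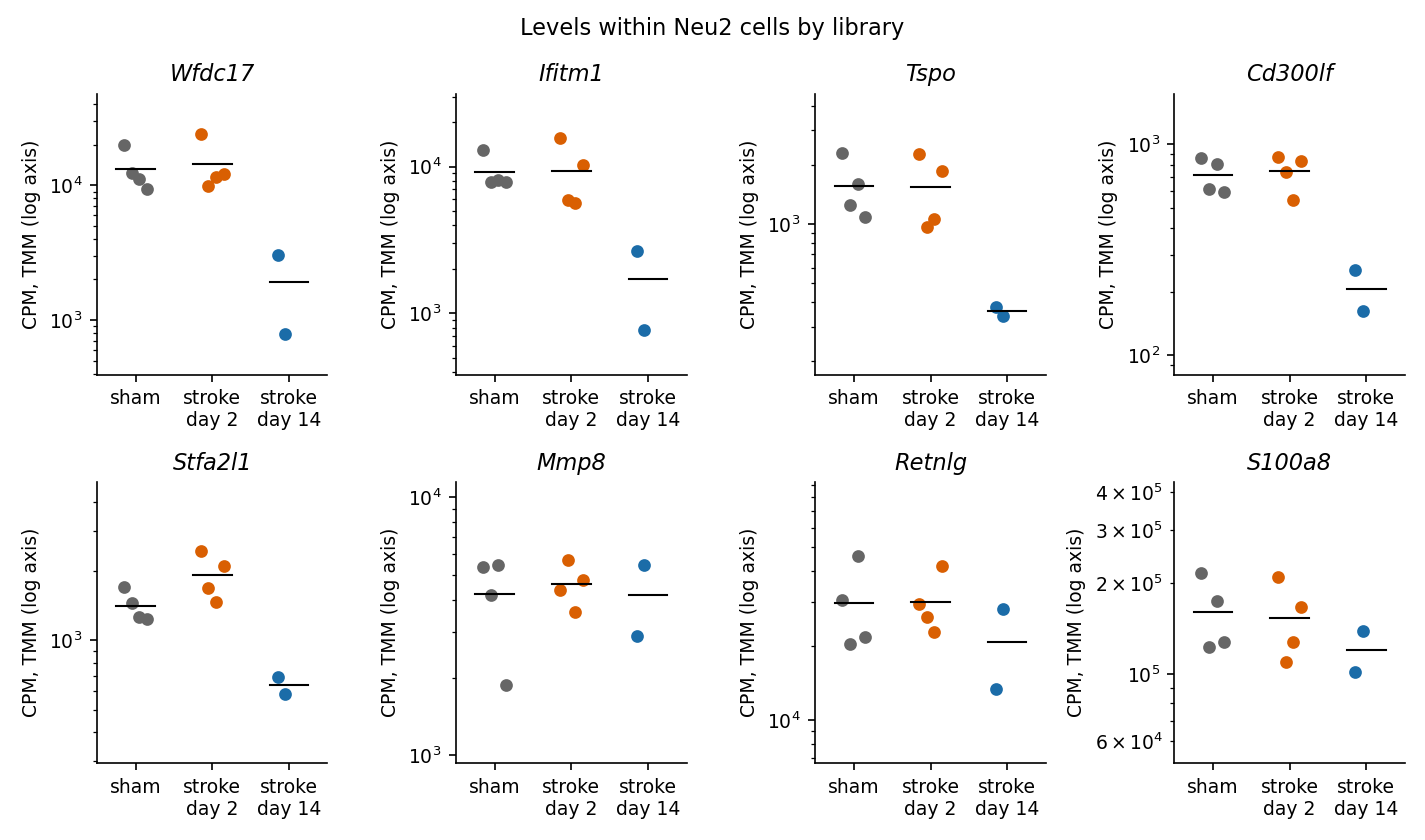
Each point is 1 library's TMM-scaled CPM within Neu2 cells (log axis) in sham, stroke day 2 and stroke day 14, with the group mean as a line. The 2 day 14 points lie below all other points for Wfdc17, Ifitm1, Tspo, Cd300lf and Stfa2l1, and overlap them for Mmp8 and Retnlg.

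These calls rest on few libraries. Without the second day 14 library 0 genes passed in either contrast, and Wfdc17 then had a log2 fold change of -2.19 against sham and an adjusted p of 0.610 (edgeR). Day 14 is then 1 library, assumed to vary like the other groups. Against sham, 1 gene passed without the first sham library, 1 without the fourth stroke day 2 library and 7 without the third sham library. Against stroke day 2, 1 passed without the first or without the fourth stroke day 2 library, 3 without the first day 14 library and 12 without the third sham library. In library 3 of day 14, which was left out (8 cells), Wfdc17 stood at 1561 CPM, Ifitm1 at 1566 CPM, Stfa2l1 at 1564 CPM and Tspo and Cd300lf at 0, where 3 counts, the limit that a count of 0 allows, are worth 945 CPM. The Stfa2l1 value, which is not TMM-scaled, lies within the ranges of the sham and stroke day 2 libraries, unlike its values in the other day 14 libraries.

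Markers of other cells are given here as sums, which were not tested between groups. Of the 9 monocyte markers 2 were tested singly against sham and 0 passed, and no T cell, eosinophil or basophil marker was tested. The summed monocyte markers in Neu2 ranged from 491 to 867 CPM in sham, 360 to 604 in stroke day 2 and 774 to 1271 in stroke day 14, and their part in the result was not tested. Eosinophil and basophil markers ranged from 4.23 to 17.2, 0 to 9.80 and 19.2 to 157 CPM in the same order. T cell markers ranged from 4.18 to 44.2, under 1 to 50.3 and 29.0 to 52.2 CPM. These sums are plain CPM and not TMM-scaled. The 2 day 14 libraries held 26991 and 49345 Neu2 counts, and 1 count was worth 31.5 and 20.1 CPM there after TMM scaling. The T cell, eosinophil and basophil values there thus stand for few counts. The B cell, NK cell and platelet lists each summed to under 1 CPM in both day 14 libraries, which is less than 1 count. The monocyte and T cell ranges overlapped between sham and day 14. An alternative chosen after seeing the data left out Neu2 cells with any value above 0 for a B, T or NK cell marker. It left 3 genes called against sham and 4 against stroke day 2. It dropped 4.58% to 21.2% of the Neu2 cells of the libraries used. The most abundant of these markers, Cd3d, summed to only 12.3 counts over all Neu2 cells. Many of the values were therefore fractions far below 1 count, and the alternative is no check for other cells.

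Neither S100a8 and S100a9 nor any tested leading gene was called within Neu2 at day 14. S100a8 had a log2 fold change of -0.42 ± 0.37 against sham (edgeR, adjusted p = 0.795), S100a9 of -0.34 ± 0.39, Mmp8 of -0.01 ± 0.36 and Retnlg of -0.52 ± 0.39. Mmp8 stood at 5376, 4178, 5437 and 1866 CPM in sham and 2902 and 5459 at day 14, and Retnlg at 30739, 20316, 46080 and 21716 against 13342 and 28020, with overlap in both. Of the 12 higher leading genes all were tested, with a median of -0.27 against -0.10 for all genes. Of the 12 lower leading genes 7 were tested, with 1 value above 0 and a median of -1.20. Both sets were chosen by their ratios in these same libraries, day 14 included, so these medians are partly set by the choice. Few counts stood behind the lower genes in the day 14 libraries, from 0 and 1 for Tagln2 and 2 and 3 for Oasl2 to 11 and 20 for Fgl2. In the fit of all neutrophils together, 296 of 4944 genes passed against sham (5.99% called, 3.8% lower and 2.18% higher), and 3 of the 12 higher leading genes were lower and none higher, with a median of -1.06 against 0.02. Of the 12 lower leading genes 2 were higher and 3 lower there. In the contrast with stroke day 2, 232 passed (4.69% called, 3.3% lower and 1.4% higher), and 2 of the 12 higher leading genes were lower and none higher, while of the 12 lower ones 3 were higher and 3 lower. Retnlg was lower in both, against sham at -1.70 ± 0.33 (edgeR, adjusted p = 0.00801). The share of Neu2 in those neutrophils differed between the groups, as given above.

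Over the 6 subtypes, Wfdc17 had rank 3 in Neu2, at 10273 ± 5313 CPM, below Neu1 at 13553 ± 6553 and Neu4 at 10541 ± 6182, all within their spread. Cd300lf had rank 5, at 573 ± 196 CPM against 911 ± 180 in Neu1. Stfa2l1 stood at 1347 ± 439 CPM, against 4315 ± 792 in Neu4.

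The genes lower in Neu2 at day 14 were also lower in all neutrophils. There Wfdc17 had -3.88 ± 0.46 against sham (edgeR, adjusted p = 0.000593), Ifitm1 -3.01 ± 0.41, Tspo -2.55 ± 0.41, Stfa2l1 -1.23 ± 0.24 and Cd300lf -0.90 ± 0.21. These fits share cells with the Neu2 fit, so they are no second test. In Neu1, 1 gene passed (0.0296% called), which was Wfdc17 at -3.12 ± 0.45 (edgeR, adjusted p = 0.00120). Ifitm1 in Neu1 had -2.41 ± 0.47 and an adjusted p of 0.0508, Tspo -2.85 ± 0.62 and Cd300lf -0.36 ± 0.34.

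**Figure D5:**
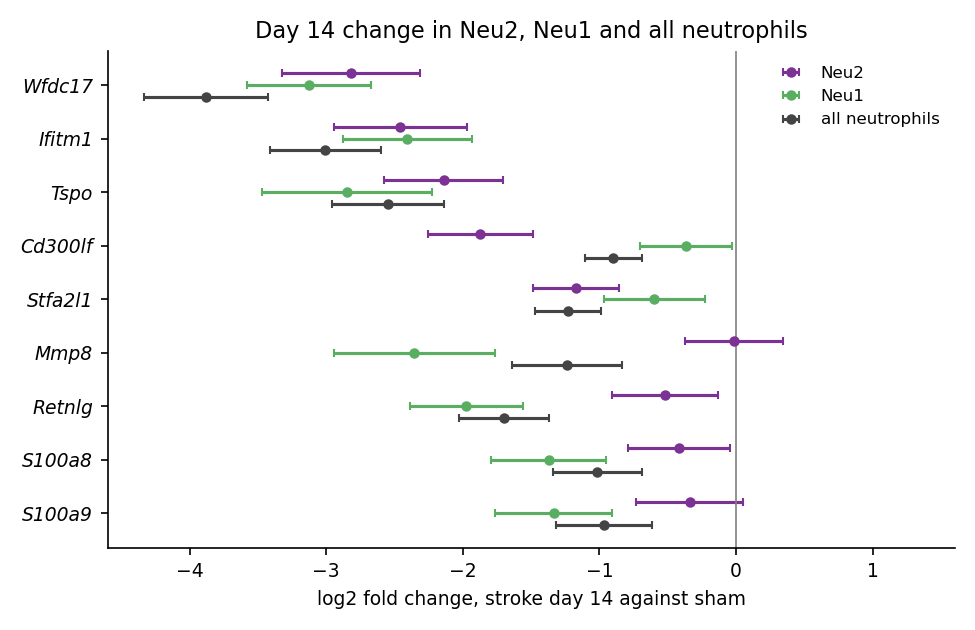
Points give the log2 fold change between stroke day 14 and sham (x axis) with its standard error as bars, fitted separately in Neu2, Neu1 and all neutrophils, for 9 genes (y axis). Wfdc17, Ifitm1 and Tspo lie below -2 in the 3 fits, while Mmp8 lies near 0 in Neu2 and below -1 in the other two.

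Whether the change differed between Neu2 and Neu1 was tested with a term for subtype by group and the library as a block. At day 2, 0 of 5027 genes passed (0% called, 205 at an unadjusted p under 0.05, 0 with DESeq2), and 5 passed without the third sham library. At day 14 the test rests on 1 library, since only 1 day 14 library held 20 cells of both subtypes. The fit, which assumes that this library varies like the other groups, returned 11 genes (0.219% called) and 0 without TMM scaling. They include Wfdc17 and Ifitm1, with a change lower in Neu2 by a difference of -1.30 and -1.69. Mmp8, Retnlg, S100a8 and S100a9 are also among them, with 2.17, 1.52, 0.74 and 0.94. The separate fits have 2 day 14 libraries per subtype, of which 1 is shared, so they rest on partly different libraries. In them Wfdc17 had -2.82 in Neu2 and -3.12 in Neu1, and Ifitm1 had -2.46 and -2.41. Neither set of values settles whether these genes changed alike in both subtypes. Mmp8 had -0.01 in Neu2 and -2.36 in Neu1 and Retnlg -0.52 and -1.97. Mmp8, Retnlg, S100a8 and S100a9 differ between the subtypes, so their values are a description.

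Other lists gave no member that passed within Neu2 at day 14. Of the 12 neutrophil markers 2 had values above 0 against sham, with a median of -0.53 against -0.10 for all genes, and of the 10 receptor genes 2 did, with a median of -0.46. Cxcr2 had -0.54 ± 0.28 (edgeR, adjusted p = 0.512) and Il1b -1.18 ± 0.37 (edgeR, adjusted p = 0.243). Il1b stood at 4526, 4863, 2896 and 5738 CPM in sham and 2870 and 1148 at day 14. Both were below every sham library, but 2870 was close to the lowest of them, 2896. In stroke day 2 it stood at 4340, 4172, 4142 and 2584 CPM, which overlapped day 14. Lyz2 had 0.94 ± 0.38 (edgeR, adjusted p = 0.368). The oxidase complex list had 3 of 6 values above 0 and a median of 0.08. Scaling moved the median of all genes against sham from -0.10 with TMM to 0.18 without it.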

How the data were processed

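Per the labels, single cells were profiled by Drop-seq. Per the submitters' processing notes the genome build was mm10 and Seurat was used. The aligner and counter are not given in the sources used here. The deposited blood tables hold fractional values per gene and cell for 16623 genes, used here in the place of expected counts, and the authors' metadata give the subtype and the percent of mitochondrial counts. At most 0.128% of the values above 0 were whole, and the origin of the fractions is not given in the sources used here. Counts were summed per library and subtype, rounded, and tested with edgeR 4.0.16 (TMM, quasi-likelihood, Benjamini-Hochberg, adjusted p under 0.05) in R 4.3.3, with 3 groups in 1 fit and libraries of under 20 cells left out. DESeq2 1.42.0 was an alternative. Subtype comparisons, summed lists and the left-out day 14 library use plain CPM, and group comparisons of single genes use TMM-scaled CPM. The edgeR comparisons of stroke day 2 and of stroke day 14 with sham were also run on simulated counts with known fold changes, whose outcome is not given here. Scrublet was run in scanpy 1.11.5. No doublets were removed here. Named genes were the 12 leading genes per side, called genes without overlap, S100a8, S100a9 and the 4 most abundant members of each list. The members and lists were chosen with earlier results of these data known. A member of the lists is not reported here.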

Additional observations from a re-analysis of the deposited data

Results flagged for a closer look

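Of 54 groups of values checked, 3 had a library far from the others of its group, where chance gives about 1 in 20. Ifitm1 in the Neu2 cells of the first sham library stood at 12896 CPM, against 7814 to 8049 CPM in the other sham libraries. Wfdc17 in the first stroke day 2 library stood at 24072 CPM, against 9900 to 12181 CPM. Rdh12 in the third stroke day 2 library stood at 186 CPM, against 804 to 924 CPM. The first library of sham and of stroke day 2 are also those with the lowest mitochondrial share in Neu2, 0.0838% and 0.0589%, and its part in these values was not tested. The test of a different change in Neu2 and Neu1 between stroke day 14 and sham (edgeR) returned 11 genes, but its day 14 side is 1 library, so it does not show that any gene changed differently. Wfdc17 and Ifitm1 are among the 11, with differences of -1.30 and -1.69. In the separate fits, which rest on partly different day 14 libraries, Wfdc17 had -2.82 in Neu2 and -3.12 in Neu1, and Ifitm1 -2.46 and -2.41.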

How the results depend on the processing

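The numbers of genes called within Neu2 moved with the processing. Against sham, day 14 gave 4 genes, and 12 with DESeq2, 21 with no filter on low counts and 7 from cells with at least 500 counts. Against stroke day 2 it gave 5 genes, and 3 without TMM, 14 with DESeq2, 35 with no filter, 8 with only the compared groups, 8 from cells with at least 500 counts, and 12 with all libraries that hold a Neu2 cell, an alternative chosen after seeing the data. Day 2 against sham gave 0 genes, and 4 with no filter. Leaving out 1 library in turn gave 0 to 3 genes at day 2, 0 to 7 for day 14 against sham and 0 to 12 for day 14 against stroke day 2. The cause was not tested. With the replicate number as a block, the counts were 0, 7 and 17. Some alternatives also called higher genes at day 14, at most 2 in either contrast, among them the block (1 against sham, 2 against stroke day 2), no filter (2 and 2) and cells with at least 500 counts (2 and 2). The correlations of same-numbered sham and stroke day 2 libraries were 0.587, 0.338, -0.144 and 0.111, so the numbers do not pair all samples. The first 2 of these pairs are those whose run identifiers begin alike. Some differently numbered libraries also went together, the third sham with the fourth stroke day 2 library at 0.511 and the second sham with the third at 0.306. Others did not, with the second sham and the fourth stroke day 2 library at -0.402. Such ties are not in the fit by group only.

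The genes returned by the test of a different change in Neu2 and Neu1, which has 1 day 14 library, numbered 0 without TMM and 17 with each value rounded up at day 14, and 12 to 18 with 1 library left out. At day 2 they numbered 0 to 5 with 1 library left out. Without the second day 14 library, or from cells with at least 500 counts, the day 14 difference could not be fitted. The called genes kept their sign in all 19 alternatives. Against sham, Wfdc17 lost its call in 1 of them, Ifitm1 in 4, Tspo in 5 and Cd300lf in 10. Against stroke day 2, Wfdc17 lost it in 1, Ifitm1 in 3, Tspo in 5, and Cd300lf and Stfa2l1 in 6 each. The doublet alternative was not run for genes, since no Neu2 cell was marked.

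As a percent of all cells, the differences in Neu2 were 0.113 points (adjusted p = 1 by an exact permutation test), the opposite sign, at day 2, and -11.4 and -11.5 points at day 14 against sham and stroke day 2. With 1 library left out, the difference in share at day 2 ran from -15.1 to -7.09 points. At day 14 it ran from -38.0 to -30.0 points against sham and from -24.9 to -21.5 against stroke day 2. Depth limits day 14 most, where 26991 and 49345 counts stood behind Neu2.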
